A study of Mus musculus with 12 samples.

Results

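The genes described here are those that let a phagocyte recognise and swallow a dying cell: the bridging ligands Gas6 and Pros1, their receptor kinases Mertk, Axl and Tyro3, the bridging protein gene Mfge8, the integrin genes Itgav and Itgb5, and the engulfment genes Elmo1 and Dock1. Members were chosen by name, as every probe set annotated to 1 of these 10 genes alone, with earlier results of these arrays in view, among them the Gas6 difference between genotypes in macrophages. The rule found 10 probe sets, 1 per gene, among 35557 on the array type of macrophages and liver, and 18 among 22690 on the array used for aorta. All genotype differences and tissue differences below are therefore descriptions of chosen genes. No threshold on a value decided membership.

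The study compared Apoe-/- mice, which clear lipoproteins poorly, with Prkch-/-Apoe-/- mice, which also lack the gene of protein kinase C eta; both genotypes lack Apoe, and both were backcrossed to C57BL/6J for more than 12 generations. Unstimulated peritoneal macrophages elicited with thioglycolate were taken from female mice kept on regular diet (3 arrays of each genotype), and replicates 1, 2 and 3 of each genotype were 18, 17 and 27 weeks old. Livers came from re-fed males of 20 weeks after 12 weeks of high-fat diet, and gave 2 arrays of each genotype. Fed males of the same age and diet gave the aortas, whose RNA was mixed from 4 mice onto a single array for each genotype. The labels state neither which part of Prkch was removed nor any restriction of its loss to a cell type. They call the macrophage and liver arrays biological replicates but do not describe how many mice gave each one, so the errors below measure the spread between these arrays.

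Dying cells expose phosphatidylserine on their outer surface. Gas6 and protein S, the product of Pros1, bind this lipid at one end, after a vitamin K dependent modification, and a receptor of the Tyro3, Axl and Mertk family (TAM receptors) at the other; Mfge8 binds the same lipid and hands the corpse to integrins that contain the Itgav and Itgb5 chains. Elmo1 and Dock1 proteins act inside the phagocyte as a complex that switches on Rac1 and so drives the membrane around the corpse. In atherosclerotic lesions and in liver this uptake is largely work of macrophages, and receptor signalling also dampens their inflammatory response.

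The stretches before the transcription start of 3 members are shown because the values below turn on them: Gas6 is the member whose macrophage values separated by genotype, Mertk its receptor, and Mfge8 the member with the widest differences between tissues and between single arrays. Each is the 250 bases before the start in RefSeq's GRCm38.p6, on the strand of the gene, with GC boxes (GGGCGG on either strand, so also CCGCCC) in capitals. Gas6 is at chr8:13494536-13494785 on the minus strand, Mertk at chr2:128698665-128698914 on the plus strand and Mfge8 at chr7:79149061-79149310 on the minus strand.
Gas6: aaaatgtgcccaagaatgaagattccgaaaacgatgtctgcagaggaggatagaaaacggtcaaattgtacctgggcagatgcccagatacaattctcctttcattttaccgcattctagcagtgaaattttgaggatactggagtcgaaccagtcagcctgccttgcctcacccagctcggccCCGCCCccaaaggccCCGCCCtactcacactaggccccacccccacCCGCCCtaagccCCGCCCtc
Mertk: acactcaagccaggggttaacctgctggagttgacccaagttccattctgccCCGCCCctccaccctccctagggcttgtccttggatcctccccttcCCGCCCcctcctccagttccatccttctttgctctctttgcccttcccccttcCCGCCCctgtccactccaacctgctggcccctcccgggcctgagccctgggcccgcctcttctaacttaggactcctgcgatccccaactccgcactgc
Mfge8: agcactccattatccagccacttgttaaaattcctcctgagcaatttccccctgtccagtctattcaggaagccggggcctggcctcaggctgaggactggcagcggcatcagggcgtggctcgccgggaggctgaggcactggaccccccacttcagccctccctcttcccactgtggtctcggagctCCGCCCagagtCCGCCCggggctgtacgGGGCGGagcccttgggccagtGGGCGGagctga
The Gas6 stretch held 4 GC boxes, Mertk 3 and Mfge8 4. Of 11 promoter entries for the 10 members, 9 held a GC box within this distance, against 32.7% of all 32851 entries; Itgav had none. Base composition differed as well, at 54.8% G and C for Gas6, 63.6% for Mertk and 65.2% for Mfge8 against a median of 52.4% over all entries; the 11 member entries ran from 43.6% to 73.2%. An E-box (CACGTG), an AP-1 motif (TGANTCA) and a nuclear receptor element (AGGTCA) were each found in 0 of 11 entries, against 6.02%, 6.75% and 14.0% of all entries. A PU.1-type core (GAGGAA) was in those of Axl, Dock1, Itgav and Mfge8, against 23.3% of all. Both strands were searched, the motifs were picked with results and sequences in view, and a match is a match of letters only.

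The macrophage and liver labels matched their marker genes. The 8 macrophage markers all passed the filter on dim genes in macrophages, where their summed level was 15.47 to 15.68 log2 units, against 11.76 to 12.54 in liver; hepatocyte markers summed to 16.22 to 16.29 in liver, and Alb, Ttr and Serpina1c were below the filter in macrophages. In the aorta 6 of 6 smooth muscle markers passed, but all 6 also passed in macrophages and in liver, so this does not tell the aorta apart. The macrophage arrays fell into 2 processing batches, recognised by exact ties between deposited values: control replicates 1 and 2 with knockout replicate 1 (batch 1), and control replicate 3 with knockout replicates 2 and 3 (batch 2). Within batch 2, 41.2% of genes carried the same value on all 3 arrays, which holds for Axl, Tyro3 and Elmo1 among the members. It also holds for Vkorc1, Adgrb1, Crk, Rhog, Elmo2 and Socs1, which are named further below. Gas6 was tied on knockout replicates 2 and 3. Errors below take tied arrays as separate measurements, so for these genes they can be too narrow. Knockout replicate 2 stood apart on the first principal component, at 36.8 against -18.8 to 3.40 for the other 5 arrays. Prkch was lower in knockouts, by -0.70 ± 0.22 in macrophages and -0.92 ± 0.16 in liver (log2, SE), with overlap between genotypes in macrophages. Limma called Prkch in neither tissue (Benjamini-Hochberg adjusted p = 0.9999 in macrophages and 0.573 in liver). So a missing genotype call for another gene does not show that it was unchanged. Aorta signals of Prkch were dim, at 17.2 for control and 9.94 for knockout, and did not reach the filter of 32.6.

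In macrophages, Gas6 was lower in mice without Prkch, at 70.3% of the control level. It was the only one of the 10 members whose genotypes did not overlap, beside 1.6% of all genes lower without overlap. The share of all genes higher without overlap was not counted in macrophages. No other ligand, receptor, integrin or engulfment gene separated by genotype, and over all genes limma called none of them.

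Gas6, the ligand of all TAM receptors, read 8.99, 8.75 and 8.55 log2 units in control replicates 1, 2 and 3 and 8.25, 8.26 and 8.26 in the knockouts. Every knockout value lay below every control value, and the controls spread far more (SD 0.22) than the knockouts (SD 0.0060). The values of knockout replicates 2 and 3 were identical, one of the ties of batch 2, so the knockout spread is not a measured spread of 3 mice. The difference was -0.51 ± 0.12 (log2, SE, n = 3 and 3), with a 95% interval of -0.80 to -0.22. It was -0.62 in batch 1 and -0.29 in batch 2, and a fit with batch as a block gave -0.46 ± 0.11. Leaving out 1 array gave -0.62 to -0.39. Each of these differences had to be negative, since the genotypes did not overlap. The errors and the interval take the tied arrays as separate measurements, so they can be too narrow. Among all 15039 genes, 1.6% were lower in knockouts without overlap.

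Markers of other cells moved beside Gas6. Of 6 fibroblast markers, 5 passed the filter (Lum did not) and 5 of 5 were lower in knockouts, with a median difference of -0.69; their summed level was 11.63, 10.64 and 11.30 among controls and 11.48, 9.55 and 10.37 among knockouts. Of 8 mesothelium markers, 7 passed (Muc16 did not) and 6 were lower, with sums of 10.10, 9.88 and 9.90 among controls and 9.95, 9.42 and 9.54 among knockouts. The fibroblast sum of knockout replicate 1 was above that of 2 controls, and the genotypes overlapped. Adipocyte markers, 4 of 6 above the filter (Adipoq and Lep were not), summed to 11.07, 11.06 and 10.86 in control mice and 10.73, 10.62 and 10.66 in knockout mice, so that their sums, like Gas6, did not overlap, though the median marker differed by only -0.08. Other lists went either way. Endothelial markers had 4 of 4 above the filter lower and smooth muscle markers 5 of 6 lower. Macrophage markers had 4 higher and 4 lower, and B cell markers 5 of 5 higher. The part of any of these cells in the Gas6 difference was not tested. In RNA from mixed cells, fewer cells of a type and less RNA per cell cannot be told apart.

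Pros1, which encodes protein S, read 10.12, 10.05 and 10.10 among controls and 9.86, 10.53 and 10.04 among knockouts. The knockouts lay on both sides of the controls, with the highest value on knockout replicate 2. The difference was 0.05 ± 0.17, and it was -0.23 in batch 1 and 0.18 in batch 2.

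Mertk, the TAM receptor most used by macrophages for corpse uptake, read 10.80, 11.44 and 10.79 among controls and 10.55, 11.61 and 10.55 among knockouts. Replicate 2 was high and replicates 1 and 3 were low in both genotypes, and the genotypes overlapped. The difference was -0.10 ± 0.33, with a 95% interval of -0.89 to 0.68, which spans changes in either direction. It was -0.57 in batch 1 and 0.29 in batch 2; without knockout replicate 2 it was -0.46 and without control replicate 2 it was 0.11. Replicate 2 mice were 17 weeks old in both genotypes, and their 2 arrays lie in different batches. The part of age was not tested. A fit with the replicate number as a block gave a Mertk difference of -0.10 ± 0.12.

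Axl, the receptor raised in inflamed phagocytes, read 8.80, 8.61 and 8.40 among controls and 8.82, 8.40 and 8.40 among knockouts. Tyro3, the third receptor, read 6.74, 6.71 and 6.52 among controls and 6.81, 6.52 and 6.52 among knockouts. For both genes the 3 arrays of batch 2 held the same number, so that batch gave a difference of exactly 0, and the 3 arrays of batch 1 were the high ones. The differences were -0.06 ± 0.16 for Axl and -0.04 ± 0.11 for Tyro3; in batch 1 alone they were 0.11 and 0.09.

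**Figure D1:**
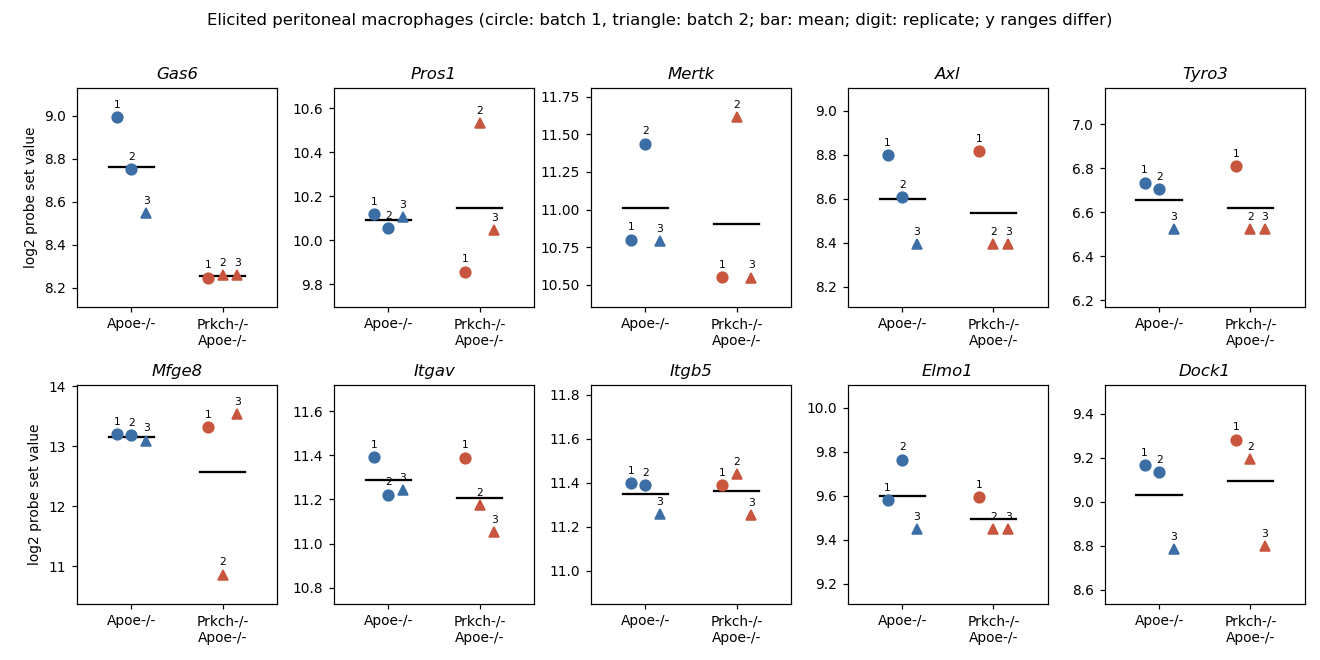
Log2 probe set values of the 10 members on the 6 macrophage arrays, Apoe-/- in blue and Prkch-/-Apoe-/- in red, with circles for batch 1, triangles for batch 2, black bars for group means and digits for replicates; each panel has its own y range. Gas6 is the panel in which the genotypes do not overlap; Mfge8 is low on knockout replicate 2, at 10.86, and Mertk is high on replicate 2 of both genotypes.

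Mfge8, which bridges corpses to integrins, was the member that varied most in macrophages, through 1 array. It read 13.20, 13.18 and 13.09 among controls and 13.32, 10.86 and 13.53 among knockouts. Knockout replicate 2 lay 2.34 log2 units below the median of the other 5 arrays, the 19th lowest such deviation of 15039 genes on that array, while the other knockouts lay above every control. The group difference of -0.59 ± 0.67 (log2, SE, n = 3 and 3) became 0.27 without that array. It was 0.13 in batch 1 and -0.90 in batch 2.

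That array differed in cell markers too. B cell markers summed to 11.94 on knockout replicate 2 against 9.38 to 10.66 on the other 5, with 5 of 6 on the array and all 5 above the filter. Fibroblast and mesothelium sums were lowest there, at 9.55 and 9.42, and the macrophage sum was the highest, at 15.68. Their part in the Mfge8 value was not tested.

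Of the integrin chains, Itgav read 11.39, 11.22 and 11.24 among controls and 11.39, 11.17 and 11.05 among knockouts, a difference of -0.08 ± 0.11. Itgb5 read 11.40, 11.39 and 11.26 among controls and 11.39, 11.44 and 11.26 among knockouts, a difference of 0.01 ± 0.09. Both genes overlapped, and the 95% interval for Itgb5, -0.20 to 0.23, was the narrowest of the 10. Elmo1 read 9.58, 9.76 and 9.45 among controls and 9.59, 9.45 and 9.45 among knockouts, with 1 shared value in batch 2, and differed by -0.10 ± 0.11. Dock1, its partner, read 9.17, 9.14 and 8.78 among controls and 9.28, 9.20 and 8.80 among knockouts and differed by 0.06 ± 0.17; replicate 3 was the low one in both genotypes.

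Taking the 10 members as a group, 7 were lower and 3 higher in knockout macrophages, with a median difference of -0.07, beside 63.5% of all genes lower and a median of -0.04. The limma fit called 0 of 10 at a Benjamini-Hochberg adjusted p under 0.05, and 0% of 15039 genes, with 105 genes at an unadjusted p under 0.05. Blocking on batch gave 6 lower and 4 higher, with a median of -0.02 beside 0.01 over all genes, of which 43.7% were lower, and without knockout replicate 2 the split was again 6 and 4, with a median of -0.05 beside -0.0071. The blocked fit also called 0 of 10, with 205 genes at that unadjusted p.

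In liver no member was called either. Axl and Elmo1 had the largest differences, both lower in knockouts, at 78.7% and 82.7% of control, and the genotypes of Axl, Elmo1 and Mertk did not overlap. Gas6, which separated in macrophages, overlapped in liver.

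Gas6 read 8.27 and 7.77 in control livers and 7.86 and 8.06 in knockout livers, so both knockouts lay between the controls, and the difference was -0.06 ± 0.18 (log2, SE, n = 2 and 2). Pros1, made in quantity by hepatocytes, read 9.50 and 9.40 among controls and 9.48 and 9.57 among knockouts, a difference of 0.08 ± 0.13. Mertk read 8.11 and 8.28 among controls and 8.05 and 8.09 among knockouts; both knockouts were lower, though one by only a small step, and the difference was -0.13 ± 0.13. Axl read 8.19 and 8.38 among controls and 7.78 and 8.11 among knockouts, again without overlap, and differed by -0.35 ± 0.16, with a 95% interval of -0.71 to 0.02. Leaving out 1 array gave -0.51 to -0.18 for Axl. Tyro3 read 6.21 and 6.01 among controls and 6.36 and 6.01 among knockouts, and overlapped.

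Mfge8 was even across livers, at 7.68 and 7.62 among controls and 7.49 and 7.71 among knockouts. Elmo1 read 6.07 and 6.14 among controls and 5.65 and 6.02 among knockouts, a difference of -0.27 ± 0.16, and leaving out 1 array gave -0.46 to -0.09. Dock1 read 7.66 and 7.50 among controls and 7.50 and 7.83 among knockouts, Itgav 8.41 and 8.40 against 8.22 and 8.49, and Itgb5 9.55 and 9.52 against 9.27 and 9.59. All 3 overlapped, with knockout replicate 1 the lowest array of each. Knockout replicate 1 was also the lowest liver for Axl, Elmo1, Mertk and Mfge8.

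**Figure D2:**
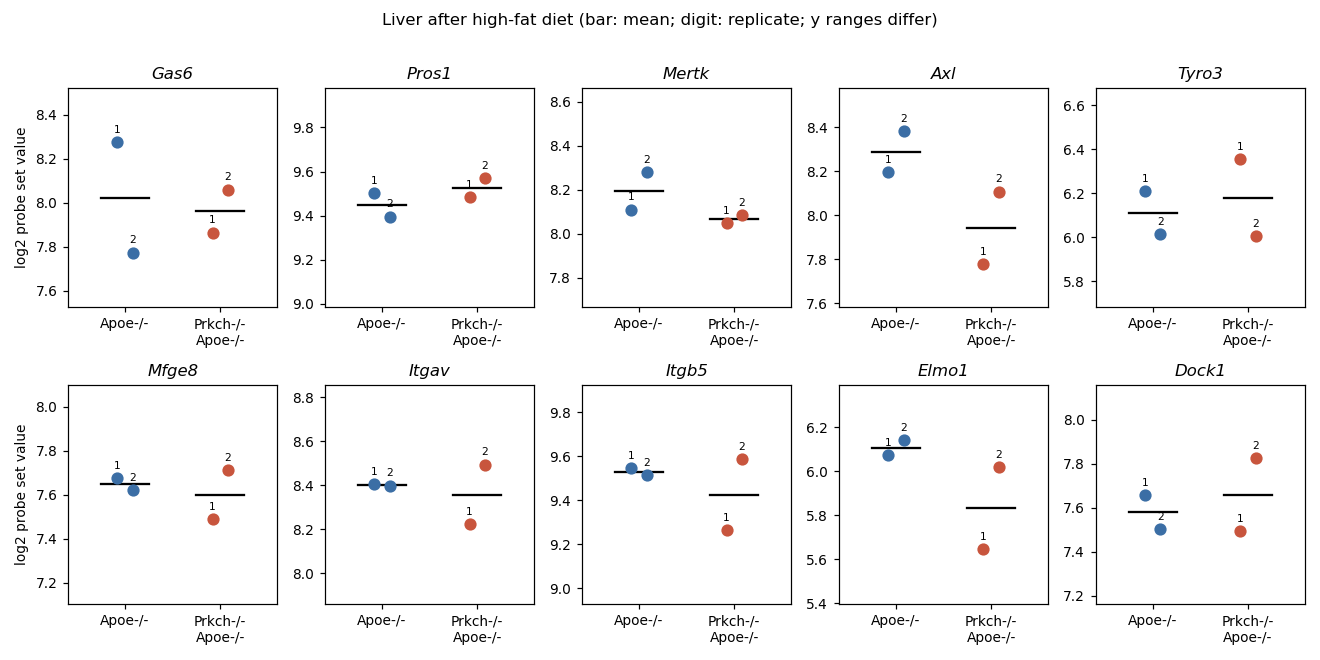
Log2 probe set values of the 10 members on the 4 liver arrays, Apoe-/- in blue and Prkch-/-Apoe-/- in red, with black bars for group means and digits for replicates; each panel has its own y range. Mertk, Axl and Elmo1 are the panels without overlap, and knockout replicate 1 is the lowest array in 7 panels.

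Non-overlap is common with 2 arrays against 2: 18% of 15942 liver genes were lower in knockouts in this way and 11.8% higher, beside 3 and 0 of the 10 members. Of the members, 7 were lower and 3 higher, with a median of -0.06 beside -0.02 over all genes. The limma fit called 0 of 10, and 0.00627% of all genes, with 684 genes at an unadjusted p under 0.05. Macrophage markers were lower in knockout livers as well: 7 of 8 were lower, with a median of -0.23, and their sums were 12.11 and 12.54 among controls and 11.76 and 11.96 among knockouts. Kupffer cell markers had 5 of 6 lower, with sums of 12.65 and 12.98 among controls and 12.66 and 12.26 among knockouts. Not every marker list was lower. Mesothelium markers had 6 of 7 above the filter higher (median 0.09). Their sums went the other way, at 11.58 and 11.44 among controls and 11.30 and 11.36 among knockouts. Hepatocyte markers had 5 of 6 higher (median 0.04), and hepatic stellate cell markers 3 higher and 3 lower. Fibroblast markers had 5 of 6 lower (median -0.27), adipocyte markers 4 of 4 above the filter lower (median -0.36; sums of 8.90 and 8.64 for controls, 8.31 and 8.42 for knockouts) and endothelial markers 6 of 6 lower (median -0.07; 10.48 and 10.52, then 10.31 and 10.46). The part of any of these in the Axl, Elmo1 and Mertk differences was not tested.

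The macrophage difference minus the liver difference was -0.45 ± 0.24 for Gas6 and 0.28 ± 0.25 for Axl (log2, SE, over 10 arrays). For the other 8 members it lay between -0.54 ± 0.87, for Mfge8, and 0.17 ± 0.20, for Elmo1. In that limma fit 0 of 10 members and 0% of 16363 genes were called, with 345 genes at an unadjusted p under 0.05. Leaving out 1 array moved the Gas6 value to between -0.70 (without liver control replicate 1) and -0.20 (without liver control replicate 2), and the Axl value to between 0.12 and 0.45 (without liver knockout replicates 1 and 2). So the lower Gas6 in macrophages and its overlap in liver were not shown to differ, and the settings also differ in sex, age and diet.

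In the aorta, where each genotype is 1 pool and no spread can be given, 9 of the 10 members passed the filter on dim genes and 0 differed by at least 2-fold, beside 1.27% of 7098 genes. Gas6 had a signal of 320.0 in control aorta and 368 in knockout aorta, higher in the knockout by 0.19 on the log2(signal + 16) scale. Pros1 had 94.2 and 102, and Mertk 145 and 157. Axl had 70.3 and 98.7, a difference of 0.41, and Elmo1 had 21.7 and 40.8, a difference of 0.59. Elmo1 passed the filter, a signal of 32.6, only through the knockout pool. The Elmo1 value was 0.88 with a pseudocount of 1 and 0.29 with a pseudocount of 64. Mfge8 had 1061 and 1035, Itgav 476 and 473, and Dock1 95.5 and 90.5. The median signal was 27.8 in the control array and 30.1 in the knockout array, and scaling them to the same median gave 0.09 for Gas6, 0.0019 for Pros1, 0.00026 for Mertk, 0.32 for Axl and 0.52 for Elmo1, and -0.15, -0.12 and -0.16 for Mfge8, Itgav and Dock1. Which members were level between the pools therefore depends on the scaling.

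Probe sets of 1 gene did not always run the same way in the aorta. The 4 sets of Itgb5 differed by -0.24, -0.04, 0.17 and 0.37, the brightest one being lower and the dimmest higher in the knockout pool. Both Tyro3 sets were below the filter, at most 8.11. Marker sums of other cells differed between the pools. B cell markers summed to 101 and 659 in the control and knockout pools, T cell markers to 28.6 and 157, skeletal muscle markers to 7285 and 4538, and fibroblast markers to 4860 and 6205. Macrophage markers summed to 3747 and 4046. Their part in the aorta values was not tested.

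**Figure D3:**
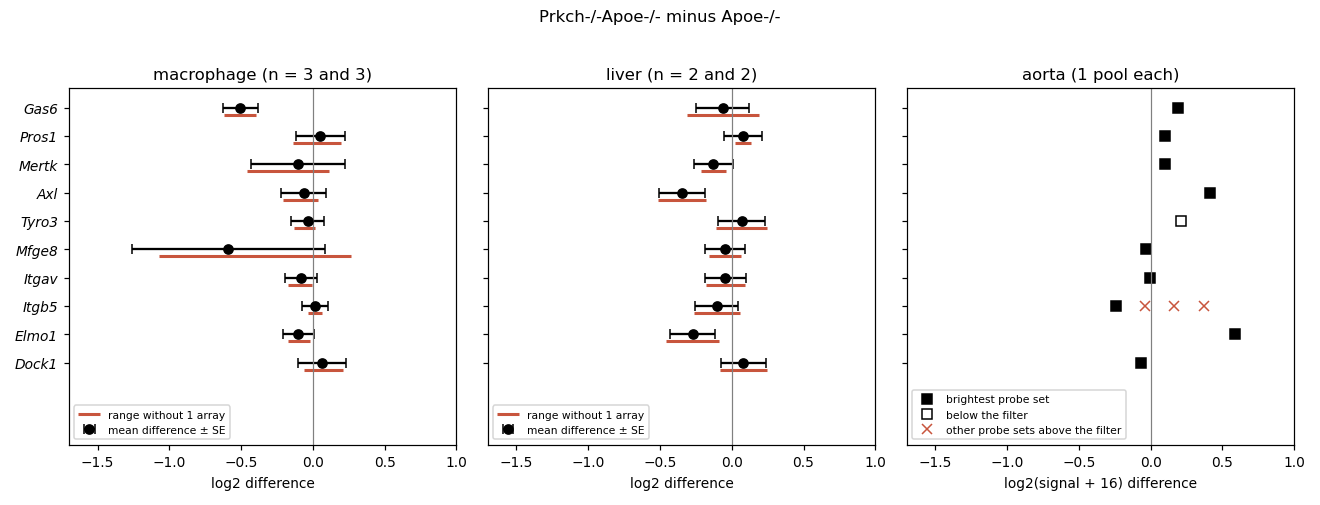
Difference between Prkch-/-Apoe-/- and Apoe-/- for each member, on log2 scales, in macrophages (3 and 3 arrays), liver (2 and 2) and aorta (1 pool each); black circles with bars are means with SE, red lines span the values with 1 array left out, and crosses are other aorta probe sets. In macrophages the whole red lines of Gas6 (from -0.62 to -0.39), Itgav and Elmo1 lie below 0, while those of the other members cross 0. Without overlap between genotypes the Gas6 line could not reach 0.

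Across control tissues, on the scale used here, some members were high in macrophages, some were near the liver level, and Axl was higher in liver. After array medians were set equal, Mfge8 was 26.5-fold higher in control macrophages than in control liver, Elmo1 6.54-fold, Itgav 4.30-fold, Mertk 4.09-fold, Itgb5 2.05-fold and Dock1 1.59-fold. Gas6 and Pros1, the TAM ligands, and Tyro3 differed little between the tissues, and Axl was 1.38-fold higher in liver.

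The Mfge8 difference was 4.73 ± 0.10 (log2, macrophage minus liver, SE, n = 3 and 2), that of Mertk 2.03 ± 0.18 and that of Elmo1 2.71 ± 0.11. The 95% intervals of Itgav (1.87 to 2.34) and Mertk (1.62 to 2.44) overlapped, as did those of Dock1 (0.40 to 0.94) and Itgb5 (0.82 to 1.26), so neither pair has a settled order; Elmo1 (2.46 to 2.96) and Mfge8 (4.51 to 4.95) stood above the rest. The differences of Gas6, Pros1 and Tyro3 were -0.04 ± 0.16, -0.14 ± 0.11 and -0.24 ± 0.11, each with an interval that included 0. Axl differed by -0.47 ± 0.12, and its limma call, with a Benjamini-Hochberg adjusted p = 0.00659, was lost without liver control replicate 2 (adjusted p = 0.062, difference -0.38).

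The direction of the 4 members near 0 depends on scaling. As deposited, the median gene read 0.80 higher in macrophages than in liver, against 0.02 after medians were set equal. On the deposited scale Gas6 was 0.74, Pros1 0.64, Tyro3 0.54 and Axl 0.31 higher in macrophages. By limma on that scale Gas6, Pros1 and Tyro3 were called (Benjamini-Hochberg adjusted p = 0.0031, 0.00035 and 0.0023) and Axl was not (0.062). With quantile normalization the 4 differences were -0.22, -0.19, -0.24 and -0.64. The other 6 members were higher in macrophages under each scaling, but as deposited their differences were larger, such as 5.51 for Mfge8, 2.81 for Mertk and 1.45 for Dock1. With medians set equal, 6 of the 10 members were called higher in macrophages and 1, Axl, higher in liver. Of 15560 genes 36% were called higher in macrophages and 31.1% higher in liver. Macrophage-higher calls made up 53.7% of all calls with medians set equal, 86.9% as deposited and 49.0% with quantile normalization. The tissues also differ in sex, age and diet.

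**Figure D4:**
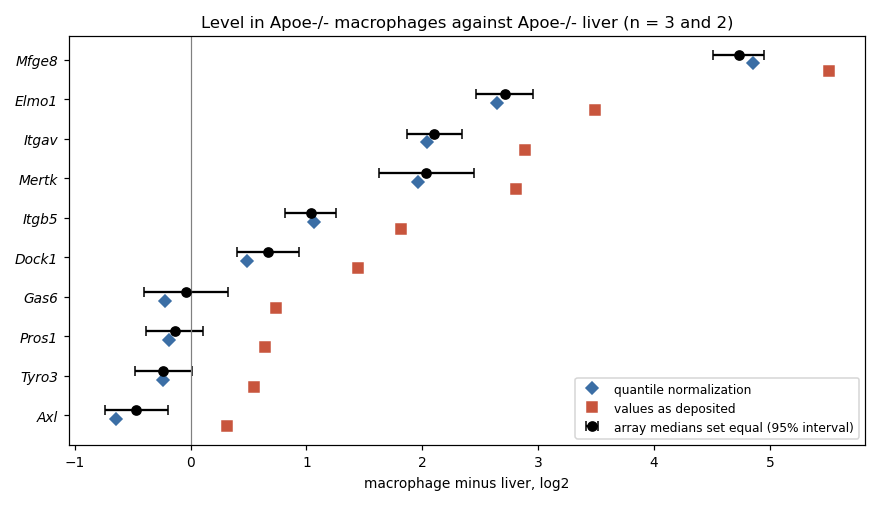
Level of each member in control macrophages minus control liver, in log2 units, with array medians set equal (black circles with 95% intervals, 3 and 2 arrays), with quantile normalization (blue diamonds) and as deposited (red squares). From Mfge8 at 4.73 down to Dock1 at 0.67 all 3 scalings lie right of 0; for Gas6, Pros1, Tyro3 and Axl only the deposited values do.

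Other genes of the route were taken from 9 lists of 87 genes, of which 81 were on the array and 78 passed the filter in each tissue. In macrophages 33 were higher and 45 lower in knockouts, with a median of -0.03 beside -0.04 over all genes. In liver 15 were higher and 63 lower, with a median of -0.12 beside -0.02 over all genes, of which 57.2% were lower. In aorta, with the arrays not scaled, 26 of 45 were higher, beside 48.5% of 7098 genes. The aorta median was 0.05 beside -0.01 over all genes. The macrophage split turned to 48 higher and 30 lower with batch as a block, and was 39 and 39 without knockout replicate 2. In the same livers the macrophage, Kupffer cell, adipocyte and endothelial markers above were mostly lower as well. Hepatocyte markers were mostly higher. Mesothelium markers were mostly higher by number, but their sums were lower in knockouts. The part of these cells in the liver split was not tested. By limma 0 of 78 were called between genotypes in either tissue. Of the genes named below, Lgals3, Cd300lf, Dock2, Vkorc1, Tgm2, Rhog and C1qa were lower in knockout livers without overlap. Ggcx and Cd47 were higher without overlap. Over all liver genes these shares were 18% lower and 11.8% higher.

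Genes that make ligands work or cut receptors loose were read first. Ggcx and Vkorc1, which carry out and sustain the vitamin K dependent modification of Gas6 and protein S, differed by -0.07 ± 0.10 and -0.19 ± 0.10 in macrophages and by 0.11 ± 0.13 and -0.13 ± 0.13 in liver. Vkorc1 had 1 shared value in batch 2 and differed by -0.38 in batch 1. Both genes were lower in control macrophages than in control liver, by -2.03 and -1.97. Lgals3, a lectin that also binds Mertk, was lower in knockout livers without overlap, at 8.89 and 9.02 among controls and 8.10 and 8.36 among knockouts, or -0.73 ± 0.15 (limma, Benjamini-Hochberg adjusted p = 0.654). Adam17 and Adam10, proteases that shed surface receptors, Mertk among the substrates of Adam17, differed by 0.14 ± 0.09 and 0.24 ± 0.19 in macrophages and by -0.21 ± 0.16 and -0.13 ± 0.14 in liver; without knockout replicate 2 the Adam10 value in macrophages was 0.01.

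Of the integrin partners, Itgb3, the other main partner chain of Itgav, differed by -0.16 ± 0.48 in macrophages, or 0.40 without knockout replicate 2, and by -0.07 ± 0.15 in liver. Tgm2, a transglutaminase that assists that integrin at the phagocytic cup, differed by 0.10 ± 0.24, or -0.18 without that array, and by -0.38 ± 0.18. Among other uptake receptors, Stab1 and Stab2, Lrp1, Adgrb1, Timd4 and Cd300lf bind corpses or their lipid. In macrophages their differences ran from -0.08, for Stab2, to 0.17, for Timd4; Stab1, at 0.10 ± 0.47, became -0.45 without knockout replicate 2. In liver Timd4 differed by -0.64 ± 0.49, with 7.50 and 8.09 among controls and 8.04 and 6.25 among knockouts, so its lower mean came from knockout replicate 2; Cd300lf differed by -0.48 ± 0.14 without overlap.

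In the engulfment machinery, Rac1, Crk, Rhog and Elmo2 differed by at most 0.05 in size in macrophages. Dock2, the relative of Dock1 used by blood cells, read 11.26, 11.22 and 11.00 among controls and 11.43, 11.48 and 11.18 among knockouts, a difference of 0.21 ± 0.12 with overlap. In liver it read 6.74 and 6.88 among controls and 6.33 and 6.41 among knockouts, -0.44 ± 0.13 without overlap. In the aorta Dock2 was higher in the knockout pool by 0.57 on the log2(signal + 16) scale, close to the 0.59 of Elmo1. Gulp1, an engulfment adaptor, passed the filter in neither tissue.

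Genes that respond to engulfed cells or brake receptor signalling gave no call either. Nr1h3, the liver X receptor that senses the cholesterol of eaten cells and can raise Mertk, differed by -0.38 ± 0.21 in macrophages and by -0.01 ± 0.15 in liver; without knockout replicate 2 the macrophage value was -0.15. Abca1, a cholesterol exporter, differed by 0.29 ± 0.34 and -0.19 ± 0.17, and by -0.10 in macrophages without that array. Socs1 and Socs3, which TAM receptors induce to damp cytokine signals, differed by -0.06 ± 0.14 and -0.01 ± 0.14 in macrophages and by -0.07 ± 0.15 and -0.10 ± 0.15 in liver. Socs1 had 1 shared value in batch 2 and differed by 0.10 in batch 1. C1qa, an opsonin of corpses, differed by 0.01 ± 0.37 and -0.46 ± 0.19, and it was -0.43 in macrophages without knockout replicate 2. Calr, an eat-me signal, and Cd47, the opposing one, differed by -0.11 ± 0.13 and 0.10 ± 0.12 in macrophages, or 0.01 and -0.0057 without that array, and by 0.07 ± 0.13 and 0.05 ± 0.13 in liver.

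The genes whose values ran most like those of Gas6 over the 10 arrays of macrophages and liver, centred on the mean of each tissue, were Susd1 (Pearson r 0.95), Ndufaf2 (0.93), Ccdc71 (0.92), Abhd3 (0.92) and Zc3hc1 (0.90), out of 13597 genes. For Mertk they were Gpr65 (0.99), Ms4a6b (0.97), Adap2 (0.96), Ednrb and Ctla2a (0.95 each). These correlations describe 10 arrays that share batches, and the high macrophage arrays of Mertk are replicate 2 of each genotype.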

How the data were processed

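RNA was measured on 12 arrays (Affymetrix Mouse Gene 1.0 ST for macrophages and liver, Mouse Genome 430A 2.0 for aorta). Deposited values of macrophages and liver were read as log2 summaries of probe sets, and deposited aorta values as linear intensity, from their ranges. The submitters' processing notes name Affymetrix Expression Console as the authors' tool; its algorithm and version were not found in the labels. The series text and the sample labels describe the aorta labelling differently.

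Probe sets with 1 gene symbol were used, the one with the highest mean for each gene, and genes under the 30th percentile were left out. In R 4.3.3 with limma 3.58.1, knockouts were compared with controls in each tissue, with Benjamini-Hochberg adjustment over all genes and a threshold of 0.05. The interaction used all 10 arrays; control tissues were compared after array medians were set equal. Aorta values were compared as log2(signal + 16), for genes whose brighter pool reached a signal of 32.6, with no test. Same-numbered macrophage arrays deviated together at r = 0.40, 0.03 and 0.50, so numbers were not taken as pairs. The knockout against control fits were also run on simulated arrays with independent noise. The simulation held no batches, ties or outlying array, so it does not bear on those features here. The interaction and control tissue fits were not simulated.

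The members, gene lists, motifs and named genes were chosen with earlier results of these data known. All 10 members and a fixed selection from the lists were named whatever their values; the 5 genes most like Gas6 and Mertk passed over predicted genes. The members' genotype differences were treated as values with no test, a choice made after it was seen how many change sign between settings; those numbers are given below.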

Additional observations from a re-analysis of the deposited data

How the results depend on the processing

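By limma, 0 macrophage genes were called under each of 13 other settings. The liver count of 1 was 0 without the filter, with quantile normalization and with all 10 arrays in 1 fit, 2 with each probe set alone, 23 with the replicate number as a block (replicate block), and 0 to 36 with 1 array left out. The replicate block left 0 calls in macrophages and in the interaction, whose count ran from 0 to 1 with 1 array left out. Aorta genes past 2-fold numbered 90, against 169 with a pseudocount of 1 and 37 with a pseudocount of 64. Of the control tissue differences, values as deposited turned Gas6 to 0.74, Pros1 to 0.64, Axl to 0.31 and Tyro3 to 0.54, and Gas6 ran from -0.30 to 0.21 with 1 array left out (0.02 without macrophage control replicate 3).

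Directions of single members were less stable. In macrophages the sign turned in 26 of 140 values over members and settings: in 0 of 14 for Gas6 and Elmo1, in 5 for Axl and Tyro3, 4 for Mertk and Itgb5, 3 for Pros1, 2 for Mfge8 and Dock1 and 1 for Itgav. Leaving out an array could not turn Gas6, as its genotypes do not overlap. Differences of exactly 0 in batch 2, as for Elmo1, were not counted as turns. In liver 8 of 90 turned, 2 each for Gas6 and Tyro3, in the interaction 24 of 150, in control tissues 6 of 90 and in aorta 2 of 44. Where 1 array is left out of a liver group, the lone array is assumed to vary like the others. The number of arrays, 2 or 3 a group, limits the precision throughout.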

Other observations

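The genes that ran most like Mfge8 over the 10 arrays, picked after its values were seen, were Gask1b, Prss46, Pdpn, Cmbl and Ttyh2, each at a Pearson r of 0.99 and each lower in knockout macrophages in mean, from -0.57 for Pdpn to -0.77 for Gask1b. These correlations rest largely on knockout replicate 2, where Mfge8 was low. The lower means therefore follow from how the genes were picked. Lgals3 was also low on knockout replicate 2, at 12.31 against 13.37 to 13.46 on the other 5 macrophage arrays, and without that array its macrophage difference went from -0.36 to 0.02.

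In the control tissues, other genes of corpse uptake also differed in level. Of the 78 list genes, 46 were called higher in macrophages and 17 higher in liver by limma, with array medians set equal, beside 36% and 31.1% of all genes; as deposited, 86.9% of all calls are higher in macrophages. In the engulfment machinery 12 of 17 were called higher in macrophages and 3 higher in liver, beside the same 36% and 31.1%. Those called higher in macrophages included Dock2, by 3.57, and Rhog, by 2.28. Stab2, a receptor of liver endothelium, was higher in liver, at -2.70 in macrophage minus liver. Other lists went differently. Of 3 genes of the vitamin K dependent modification, 0 were called higher in macrophages and 2 higher in liver. Of 7 genes that brake TAM receptor signalling, these numbers were 3 and 2.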
